A study of Mus musculus with 64 samples.

Results

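The 7 genes described here belong to the endogenous opioid system of the mouse brain and encode the peptide precursors Penk, Pdyn and Pnoc, and the receptors Oprm1, Oprk1, Oprd1 and Oprl1. They were found by symbol among the 55401 genes of the deposited count table, and all 7 passed the filter on low counts that left 18971 genes to test. Bulk RNA-seq was made from the prefrontal cortex (PFC, labelled frontal cortex) and the whole hypothalamus of 32 chow-fed, group-housed male C57BL/6J mice that were 10 weeks old at injection. Each mouse received 1 intraperitoneal injection of 3 mg/kg psilocybin, a serotonergic psychedelic, or of isotonic saline, and the tissue was harvested 3 h or 4 weeks later, in the morning. This gave 8 groups of 8 libraries (region by treatment by time), in which the mice of 1 treatment and time came from 8 numbered cages. The mice harvested 3 h after injection were about 4 weeks younger than the others, so age, date of harvest and time since injection cannot be told apart.

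Opioid peptides are cut from larger precursor proteins. Proenkephalin, from Penk, yields the enkephalins, prodynorphin, from Pdyn, yields the dynorphins, and pronociceptin, from Pnoc, yields nociceptin. The receptors all couple to inhibitory G proteins: enkephalins act mainly on the delta receptor (Oprd1) and the mu receptor (Oprm1), dynorphins on the kappa receptor (Oprk1), and nociceptin on its own receptor (Oprl1), which binds the other opioids poorly. In the forebrain Penk and Pdyn are abundant in projection neurons of the striatum, and in the hypothalamus they occur in several peptidergic neuron types.

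The sequences that set the peptides apart lie in the coding parts of the precursor transcripts. The opioid peptides of Penk and Pdyn start with the codons for tyrosine, glycine, glycine and phenylalanine, and the next codon, for methionine or leucine, makes each a Met- or a Leu-enkephalin core. The transcript Penk-201 held 7 such cores, 6 with methionine and 1 with leucine, in a reading frame of 268 codons. Pdyn-201 held 3, all with leucine, in 248 codons, and Pnoc-201 held none in 187 codons but 1 nociceptin start, in which phenylalanine takes the place of tyrosine. Each of these stretches followed a pair of codons for the basic residues lysine or arginine, where the precursors are cut. A selection of the cores is shown because these codons are what Penk and Pdyn share and Pnoc lacks. The sequences come from the GENCODE vM21 transcripts (GRCm38, minus strand for all 3 genes), 5′ to 3′, with the 5 codons of the core in capitals and 9 flanking bases on each side in lower case.
Penk exon 2, first Met core, chr4:4134325-4134357: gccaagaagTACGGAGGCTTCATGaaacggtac
Penk exon 2, Leu core, chr4:4133932-4133964: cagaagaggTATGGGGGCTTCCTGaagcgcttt
Pdyn exon 4, first Leu core, chr2:129688229-129688261: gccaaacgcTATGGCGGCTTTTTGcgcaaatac
Pdyn exon 4, last Leu core, chr2:129688064-129688096: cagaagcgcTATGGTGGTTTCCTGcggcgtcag
Pnoc exon 3, nociceptin start, chr14:65404869-65404901: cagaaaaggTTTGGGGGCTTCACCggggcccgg

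In the coordinates of the count table (GRCm38), Penk (ENSMUSG00000045573.9) spans chr4:4133531-4138819, Pdyn (ENSMUSG00000027400.11) chr2:129686565-129699833 and Pnoc (ENSMUSG00000045731.6) chr14:65400673-65425472, all on the minus strand. Oprm1 (ENSMUSG00000000766.18) spans chr10:6758506-7037201, Oprk1 (ENSMUSG00000025905.14) chr1:5588466-5606131 and Oprl1 (ENSMUSG00000027584.17) chr2:181715016-181720985, on the plus strand, and Oprd1 (ENSMUSG00000050511.1) lies at chr4:132110726-132144486 on the minus strand. Penk overlaps A830012C17Rik, and Oprm1 overlaps Ipcef1 and Gm10945, in each case on the opposite strand. The libraries kept the strand of the RNA, but the strand setting of the counting was not clear from the sources used here, so reads of these overlapping genes may be shared.

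Of the 64 libraries, 62 held 8061033 to 70361839 counted reads (median 15712850 in hypothalamus and 19185948 in PFC), and the other 2, 1 of hypothalamus (saline, 3 h, cage 2) and 1 of PFC (psilocybin, 4 weeks, cage 3), held 211111 and 200066 and were left out. A library of hypothalamus (psilocybin, 4 weeks, cage 5) and one of PFC (psilocybin, 3 h, cage 7) stood apart from the rest and received the lowest of the quality weights estimated with limma, 0.0276 and 0.12, with the next at 0.275. Tissue labels fitted the defining markers: Slc17a7, of cortical excitatory neurons, was at 1060 to 1575 CPM (counts scaled to a common library size of 1000000) in PFC and 8.87 to 102 in hypothalamus, and Oxt, of hypothalamic neurons, was at 67.7 to 1201 CPM in hypothalamus and at most 7.63 in PFC. RNA was extracted in pools A and B for hypothalamus and C and D for PFC, which hold cages 1 to 4 and 5 to 8. The pool was a term within each region in every main model. No pool held both regions, so this term does not adjust the comparisons between regions for extraction.

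The first question was where each gene was expressed. Levels between genes were set side by side as RPKM, which is CPM divided by the exon length in kilobases, over the 31 libraries of each region. By RPKM, Penk was the highest of the 7 genes in both regions. In PFC it had a median of 43.4 RPKM (lowest 23.1, highest 304), and in hypothalamus 53.0 RPKM (31.7 to 141). Pdyn followed in PFC at 12.5 RPKM (9.23 to 28.3) and reached 19.8 RPKM (11.9 to 32.9) in hypothalamus. Pnoc was the lowest precursor, at 3.22 RPKM (2.10 to 6.45) in PFC and 9.57 RPKM (7.31 to 17.3) in hypothalamus. The order depends on the division by length: in CPM, Oprl1 was above Penk in hypothalamus (medians 109 and 86.6 CPM).

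Among the receptors, the nociceptin receptor gene Oprl1 was the most abundant in both regions, with a median of 12.3 RPKM in PFC (6.32 to 15.2) and 29.1 RPKM in hypothalamus (22.3 to 35.3). Oprd1 came next in PFC, at 5.55 RPKM (3.68 to 7.96), but had only 1.34 RPKM in hypothalamus (0.247 to 2.04). Oprk1 showed the reverse, with 0.651 RPKM in PFC (0.333 to 3.73) and 2.93 RPKM in hypothalamus (1.16 to 3.67). By RPKM, Oprm1 was the lowest of the 7 genes in both regions, at 0.162 RPKM in PFC (0 to 0.310) and 1.05 RPKM in hypothalamus (0.124 to 1.55). Without division by length, its median in hypothalamus, 8.47 CPM, was above the 5.38 CPM of Oprd1. In PFC Oprm1 rested on a median of 20 counts per library. It had 0 counts in the PFC library of psilocybin, 3 h, cage 7, which allows up to 0.204 CPM at a limit of 3 counts (counting error only).

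Of the 12 pairs of neighbours in these orders by RPKM, 7 kept their order in all 31 libraries. In PFC, Pdyn exceeded Oprl1 in 17 of 31 libraries, so these 2 genes could not be ordered beyond their spread. In hypothalamus Oprd1 exceeded Oprm1 in 23 of 31 libraries, and Oprl1 exceeded Pdyn in 29 of 31. In PFC Oprd1 exceeded Pnoc in 29 of 31 libraries and Pnoc exceeded Oprk1 in 30 of 31. Penk was above the gene ranked next in all 31 libraries of each region, by a median ratio of 3.60 to Pdyn in PFC and 1.69 to Oprl1 in hypothalamus.

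**Figure D1:**
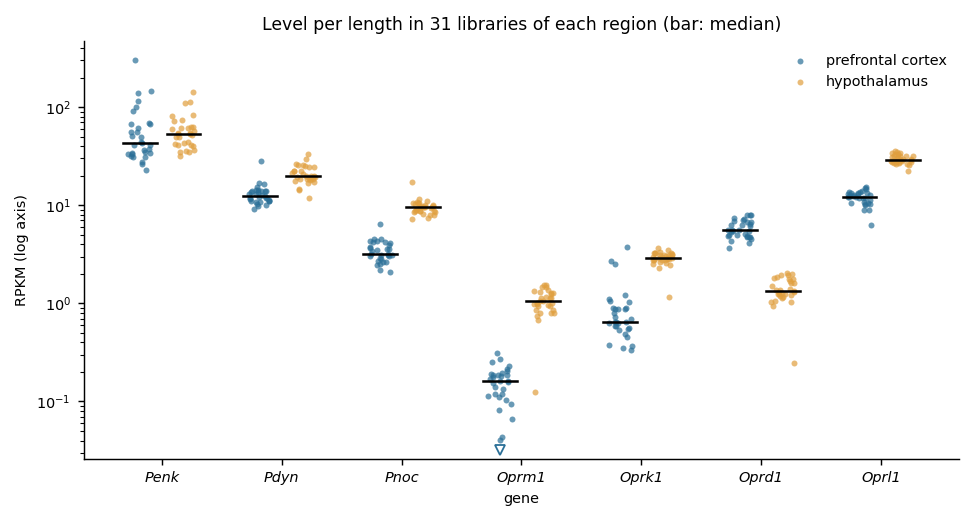
Level of each gene in RPKM (log axis) in the 31 libraries of prefrontal cortex and the 31 of hypothalamus, 1 point per library, with the median as a bar and an open triangle for the 1 library with 0 counts. Oprd1 is higher in PFC, Penk overlaps widely between the regions, and the other 5 genes have higher medians in hypothalamus.

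Between regions, 5 of the 7 genes were lower in PFC than in hypothalamus, 1 was higher and Penk did not pass the test (edgeR quasi-likelihood test, adjusted p under 0.05 over 18971 genes). Differences by region were the rule in these tissues: 76.2% of all genes tested passed, so a count of 6 of 7 says little about opioid genes as a group, and the sizes and directions are given instead. The median log2 difference of the 7 genes (PFC minus hypothalamus) was -1.31, beside 0.0188 over all genes tested. Both regions came from the same mice, and with the mouse as a block the same 6 genes passed. In these bulk samples, fewer cells of a type and less RNA per cell cannot be told apart. Nor can region and RNA extraction, since each pool held 1 region.

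The delta receptor gene Oprd1 ran from 14.8 to 32.02 CPM in PFC (median 22.3) and from 0.994 to 8.20 CPM in hypothalamus (median 5.38). These ranges did not overlap, and Oprd1 was higher in PFC in 30 of 30 mice with both libraries. The fold was 4.10 (log2 difference 2.04, SE 0.091, adjusted p = 4.27e-29, edgeR). Oprl1 ran from 23.7 to 57.0 CPM in PFC and from 83.5 to 133 CPM in hypothalamus, also without overlap and lower in PFC in 30 of 30 mice. Its level in hypothalamus was 2.48-fold that of PFC (log2 difference -1.31, SE 0.045, adjusted p = 6.92e-35, edgeR).

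The largest fold was that of the mu receptor gene Oprm1, which had a median of 1.304 CPM in PFC (0 to 2.49) and 8.47 CPM in hypothalamus (0.994 to 12.4). The single hypothalamic library at 0.994 CPM, that of cage 5 which stood apart, made the ranges overlap, and all 30 mice had less Oprm1 in PFC. Hypothalamus exceeded PFC 6.86-fold (log2 difference -2.78, SE 0.16, adjusted p = 4.31e-23, edgeR). Thalamic neuron markers, of a neighbouring tissue, differed in the same direction, with 7 of 7 called lower in PFC (median log2 difference -2.66) and sums of 55.5 to 90.6 CPM in PFC and 227 to 695 CPM in hypothalamus. Their part in the differences of the opioid genes between regions was not tested. Oprk1, of the kappa receptor, had a median of 5.96 CPM in PFC (3.04 to 34.1) and 26.8 CPM in hypothalamus (10.6 to 33.6), a 3.48-fold difference (log2 difference -1.80, SE 0.14, adjusted p = 5.43e-18, edgeR). The ranges overlapped, and 28 of 30 mice had the lower value in PFC.

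Of the precursors, Pnoc had 4.52 to 13.9 CPM in PFC and 15.8 to 37.3 CPM in hypothalamus. Its ranges did not overlap, hypothalamus was higher in 30 of 30 mice, and the fold was 2.82 (log2 difference -1.50, SE 0.074, adjusted p = 5.60e-27, edgeR). Pdyn had a median of 36.0 CPM in PFC (26.6 to 81.8) and 57.2 CPM in hypothalamus (34.3 to 94.95), with overlapping ranges and a lower value in PFC in 28 of 30 mice. The fold was 1.61 (log2 difference -0.69, SE 0.075, adjusted p = 2.63e-12, edgeR).

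Penk had medians of 70.9 CPM in PFC (37.7 to 497) and 86.6 CPM in hypothalamus (51.9 to 230). The log2 difference was -0.046 with a 95% interval of -0.38 to 0.29 (adjusted p = 0.807, edgeR), and PFC was lower in 18 of 30 mice. Within cages 1 to 4 Penk was lower in PFC (log2 difference -0.55, adjusted p = 0.00204, edgeR), and within cages 5 to 8 the difference was 0.36 (adjusted p = 0.239). Markers of striatal neurons moved with Penk in these libraries, as given further on.

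Among the genes that act around the opioid peptides, the share called between regions was close to the 76.2% of all genes, and the counts are given as a description. Of 8 genes of precursor processing, 2 were higher and 4 lower in PFC (median log2 difference -0.12). Pomc, the precursor of the opioid peptide beta-endorphin, was lower in PFC (log2 difference -5.54, adjusted p = 1.43e-32, edgeR). The prohormone convertase genes moved in opposite directions: Pcsk2 was higher in PFC (log2 difference 1.09, adjusted p = 9.90e-33) and Pcsk1 lower (-0.46, adjusted p = 4.33e-09). Of 9 genes of peptide-degrading enzymes, 3 were higher and 5 lower (median -0.21). Anpep, an aminopeptidase that cleaves enkephalins, was higher (log2 difference 1.97, adjusted p = 3.91e-20), and the endothelin-converting enzyme genes Ece2 (-1.65, adjusted p = 8.66e-26) and Ece1 (-0.39, adjusted p = 4.23e-13) were lower.

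Of 23 genes of receptor signalling, 15 were higher in PFC and 4 lower (median log2 difference 0.51). They included the G protein regulator Rgs4 (1.68, adjusted p = 3.52e-41, edgeR), which was higher, and the adenylyl cyclase gene Adcy8 (-1.37, adjusted p = 7.10e-37) and the potassium channel gene Kcnj5 (-5.49, adjusted p = 5.54e-36), which were lower. Of 10 genes of factors that act on the Pdyn and Penk genes, 6 were higher and 2 lower (median 0.35). Kcnip3, whose product DREAM represses Pdyn, was higher (log2 difference 0.79, adjusted p = 7.70e-28), as were Egr1 (2.72, adjusted p = 1.01e-29) and Fosb (2.05, adjusted p = 2.23e-27).

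The second question was whether psilocybin changed opioid gene expression. None of the 7 genes passed the test between psilocybin and saline in either region at either time (0 of 7 in each of 4 comparisons, edgeR). Few genes passed at all: 0.0105% of all genes tested passed in PFC at 3 h and 0% in each of the other 3 comparisons. At an unadjusted p under 0.05 there were 2 of 7 opioid genes in PFC at 3 h, 1 of 7 in PFC at 4 weeks and 0 of 7 in hypothalamus at 3 h and at 4 weeks, beside 1371, 456, 337 and 1823 of all genes. DESeq2 also called 0 of 7 in all 4 comparisons. So did limma with voom quality weights and the mouse as block, a re-run after the study's procedure, which called 1232 genes in PFC at 3 h. The study also left out 1 further sample, which is kept here, and 1232 is not the study's own count. Of the 7 opioid genes, the log2 fold change was negative in 4 in PFC at 3 h, 7 in PFC at 4 weeks, 5 in hypothalamus at 3 h and 4 in hypothalamus at 4 weeks, with medians of -0.031, -0.19, -0.11 and -0.044. In all 28 pairs of groups (7 genes, 4 comparisons) the psilocybin and saline libraries overlapped. The share of all genes with such overlap was not counted, so this says little about opioid genes as a group.

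**Figure D2:**
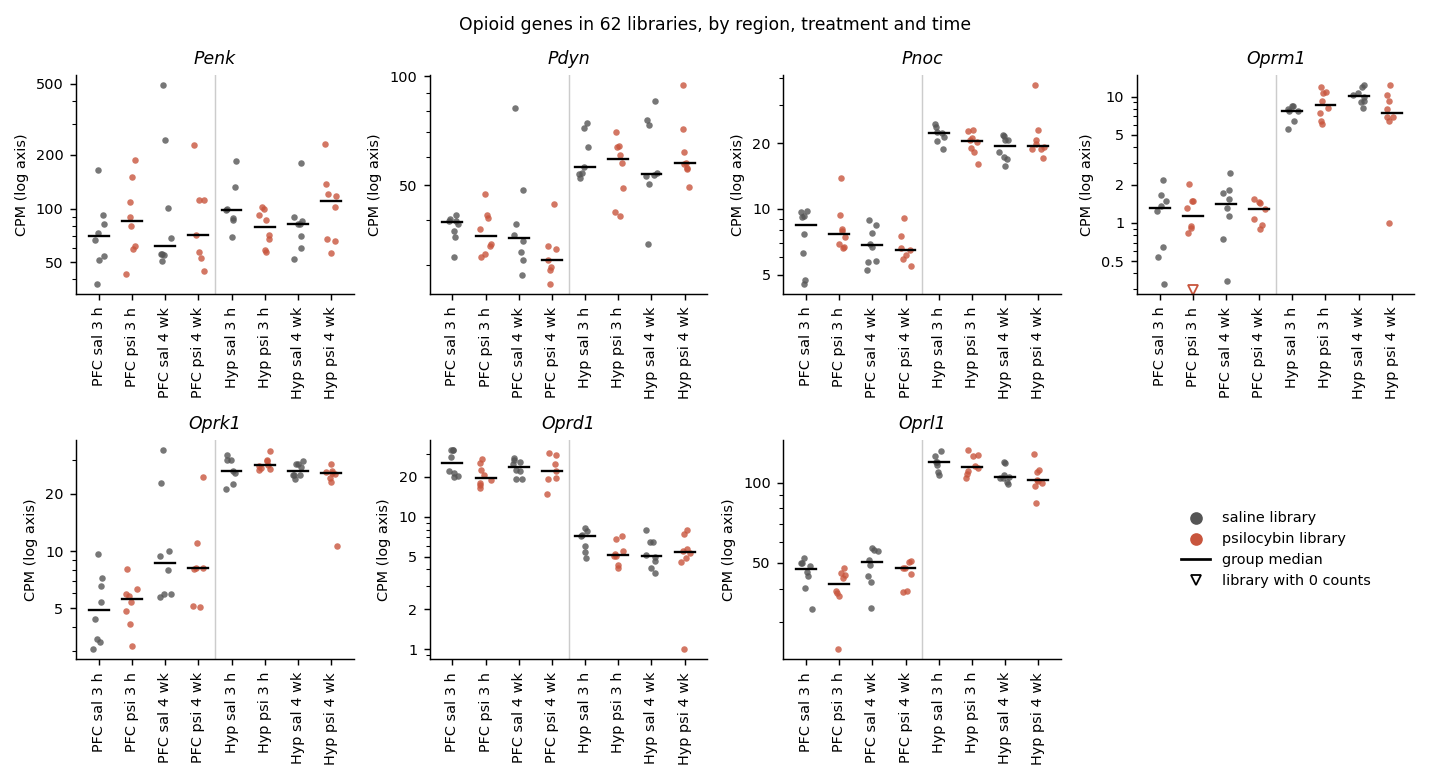
Level of the 7 genes in CPM (log axis) in each of the 62 libraries, 1 panel per gene, with the 8 groups of region (PFC, Hyp), treatment (sal, psi) and time along the x axis, group medians as bars and an open triangle for the library with 0 counts. Psilocybin and saline points overlap in every panel, and single libraries lie far from their group, such as Penk at 497 CPM in PFC saline at 4 weeks.

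Among the receptors, Oprl1 and Oprd1 had the smallest unadjusted p in PFC at 3 h. In PFC at 3 h, Oprl1 had 33.6 to 52.2 CPM after saline (median 47.4) and 23.7 to 47.7 CPM after psilocybin (median 41.6). Values after psilocybin were below the saline median in 7 of 8 libraries, and the log2 fold change was -0.19 (95% interval -0.36 to -0.010, unadjusted p = 0.0387, adjusted p = 0.685, edgeR). The 23.7 CPM came from the cage 7 library that stood apart, and without it the log2 fold change was -0.11 (unadjusted p = 0.172, adjusted p = 0.562). Oprd1 had 20.1 to 32.02 CPM after saline (median 25.3) and 16.4 to 27.4 CPM after psilocybin (median 19.8), with 4 of 8 psilocybin libraries below every saline library. Its log2 fold change was -0.33 (95% interval -0.67 to -0.00099, unadjusted p = 0.0493, adjusted p = 0.689, edgeR), and adjusted p = 0.0589 with voom quality weights, the smallest adjusted value of an opioid gene by these 3 tools in this comparison.

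The other 2 receptor genes had log2 fold changes close to 0 in PFC at 3 h, with wide intervals. Oprk1 had medians of 4.90 CPM (saline) and 5.59 CPM (psilocybin) and a log2 fold change of 0.032 (95% interval -0.54 to 0.60, adjusted p = 0.994, edgeR). Oprm1, at 1.31 and 1.13 CPM, had a log2 fold change of -0.031 (95% interval -0.74 to 0.67, adjusted p = 0.994).

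In hypothalamus no receptor gene passed the test either. Oprd1 had 4.88 to 8.20 CPM after saline at 3 h (median 7.09) and 4.12 to 7.09 CPM after psilocybin (median 5.13), with 7 of 8 psilocybin libraries below the saline median, and a log2 fold change of -0.35 (95% interval -0.72 to 0.029, adjusted p = 1, edgeR). At 4 weeks it was -0.049 (95% interval -0.42 to 0.32). Markers of striatal neurons had the sign of Oprd1 at 3 h, with 11 of 12 negative and 0 called (median log2 fold change -0.26). Over the main and alternative fits, including a fit with these markers as covariate, Oprd1 at 3 h ran from -0.41 to -0.20. Oprm1 was 7.75 CPM after saline and 8.62 CPM after psilocybin at 3 h (medians), and 10.1 and 7.46 CPM at 4 weeks, where 5 of 8 psilocybin libraries were below every saline library. The 4-week log2 fold change was -0.45 (95% interval -1.02 to 0.12, adjusted p = 0.656, edgeR), and -0.27 without the 2 libraries that stood apart (adjusted p = 1), an alternative chosen after seeing the data. At 3 h the log2 fold change of Oprm1 over the 62 libraries was 0.22 (95% interval -0.37 to 0.81). Thalamic neuron markers had the signs of Oprm1 in hypothalamus, with 7 of 7 positive at 3 h (median log2 fold change 0.17) and 7 of 7 negative at 4 weeks (median -0.22), and 0 called at either time. Their sums overlapped between the treatments, at 319 to 685 CPM after saline and 228 to 654 CPM after psilocybin at 4 weeks, and their part was not tested. Oprk1 (log2 fold change 0.095 at 3 h and -0.18 at 4 weeks) and Oprl1 (-0.025 and -0.044) did not pass the test. At 4 weeks the psilocybin library of cage 5, which stood apart, had 10.6 CPM of Oprk1 (the others 23.0 to 28.8). With 1 library left out in turn, the 4-week value of Oprk1 ran from -0.22 to -0.071.

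Among the precursors, Pdyn in PFC at 4 weeks had the smallest unadjusted p. It ranged from 28.3 to 81.8 CPM after saline (median 35.7) and from 26.6 to 44.3 CPM after psilocybin (median 31.1), with 6 of 7 psilocybin libraries below the saline median. The log2 fold change was -0.36 (95% interval -0.66 to -0.051, unadjusted p = 0.023, adjusted p = 1, edgeR). Without cage 6, whose saline library held the 81.8 CPM, it was -0.23 (unadjusted p = 0.0878). Leaving out cage 6 was an alternative chosen after seeing the data. Striatal markers had the same sign in this comparison, with 12 of 12 negative and 0 called (median log2 fold change -0.50). Their summed level ranged from 370 to 2491 CPM after saline and from 358 to 1099 CPM after psilocybin. With this sum as a covariate Pdyn was -0.25 (unadjusted p = 0.0569, adjusted p = 1). Of the hypothalamic neuron markers, 8 of 12 were negative and 0 called (median log2 fold change -0.57), with sums of 3.79 to 25.6 CPM after saline and 3.65 to 16.4 CPM after psilocybin, and their part in the Pdyn difference was not tested.

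Penk had the widest intervals of the precursors. In PFC it had medians of 69.8 CPM (saline) and 85.2 CPM (psilocybin) at 3 h, with a log2 fold change of 0.32 (95% interval -0.34 to 0.98, adjusted p = 0.882, edgeR). At 4 weeks the medians were 61.9 and 70.9 CPM, yet the fitted log2 fold change was -0.50 (95% interval -1.18 to 0.18, adjusted p = 1), since 2 saline libraries were at 497 and 241 CPM. In hypothalamus Penk was -0.43 at 3 h (medians 97.5 and 78.7 CPM) and 0.36 at 4 weeks (81.8 and 110 CPM). At 4 weeks the psilocybin library of cage 8 was at 230 CPM. With 1 library left out in turn, Penk ran from -0.52 to -0.27 at 3 h and from 0.14 to 0.58 at 4 weeks. Pnoc stayed between -0.13 and 0.20 on the log2 scale in the 4 comparisons, with adjusted p of 0.689 or more (edgeR). The 0.20 was that of hypothalamus at 4 weeks, where the psilocybin library of cage 5, which stood apart, was at 37.3 CPM (the others 17.1 to 23.2). With 1 library left out in turn, this value ran from 0.028 to 0.24.

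**Figure D3:**
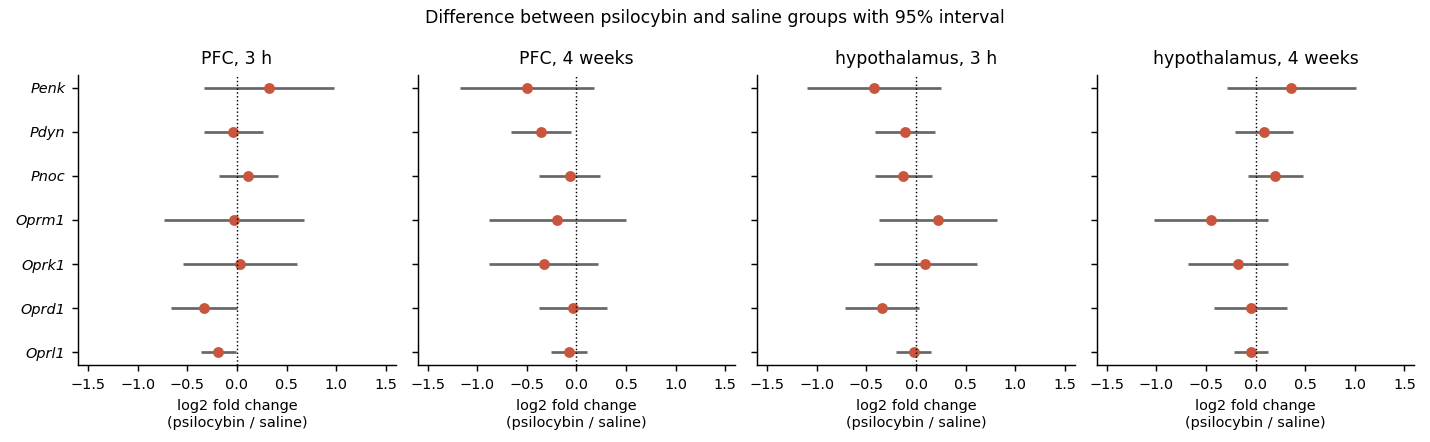
Log2 fold change of each opioid gene, psilocybin over saline, with its 95% interval, in 1 panel per region and time (edgeR, 62 libraries). The intervals of 25 of the 28 comparisons include 0, and the other 3 (Oprd1 and Oprl1 in PFC at 3 h, Pdyn in PFC at 4 weeks) end close to it.

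Whether the psilocybin effect differed between regions (at 3 h and at 4 weeks) or between times (in PFC and in hypothalamus) was tested as 4 interactions. In each, 0 of 7 genes passed in edgeR (background 0% in each), and also 0 of 7 in DESeq2 and with voom quality weights. At an unadjusted p under 0.05 there was 1 of 7 between regions at 4 weeks and 0 of 7 in the other 3 tests, beside 1269 of all genes there and 528, 585 and 999 in the others. The 1 gene was Pdyn (PFC minus hypothalamus, log2 difference -0.44, SE 0.21, adjusted p = 0.737, edgeR). In the same test 12 of 12 striatal markers (median -0.82) and 10 of 12 hypothalamic neuron markers (median -0.73) were negative, with 0 called. The cause of the Pdyn difference was not tested. The genes around the opioid system did not pass the psilocybin comparisons either: 0 of 8 processing, 0 of 9 degradation, 0 of 23 signalling and 0 of 10 regulator genes were called in any of them. The smallest p among these was that of Adcy8 in PFC at 3 h (log2 fold change -0.30, SE 0.086, unadjusted p = 0.000815, adjusted p = 0.327, edgeR).

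The third comparison set the libraries taken 3 h after injection beside those taken at 4 weeks, within each treatment. In PFC after saline, 1 of 7 opioid genes passed, where 4.72% of all genes did. This was the kappa receptor gene Oprk1. It had 7.26, 5.40, 3.33, 3.04, 9.64, 6.57, 4.41 and 3.46 CPM in the 8 libraries at 3 h. At 4 weeks it had 10.1, 5.71, 9.41, 5.94, 7.93, 34.1, 22.9 and 5.96 CPM (cages 1 to 8 in both cases). The groups overlapped, and the 4-week group was drawn out by the libraries of cages 6 and 7. Oprk1 was 2.30-fold lower at 3 h (log2 difference -1.20, SE 0.27, adjusted p = 0.00439, edgeR). Fitted on the PFC libraries alone, the log2 difference was the same and the call was lost (adjusted p = 0.0555).

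After psilocybin the same gene had a median of 5.59 CPM at 3 h (3.18 to 8.08) and 8.14 CPM at 4 weeks (5.06 to 24.7). The log2 difference was -0.83 (SE 0.29, adjusted p = 0.0676, edgeR), so 0 of 7 genes passed there, where 5.96% of all genes did. At an unadjusted p under 0.05 there were 3 of 7 opioid genes, beside 20.4% of all genes. DESeq2 (adjusted p = 0.0421) and voom with quality weights (0.0204) called Oprk1 in this comparison, and voom did not call it after saline (adjusted p = 0.0841). Leaving out 1 of 3 psilocybin libraries brought it past the threshold in edgeR: cage 2 at 3 h (adjusted p = 0.0407), or cage 5 (0.036) or cage 7 (0.0367) at 4 weeks. Without cage 6 at 4 weeks, the log2 difference was -0.50 (adjusted p = 0.306). The test of the difference between the treatments was not passed (log2 difference 0.36, SE 0.39, adjusted p = 1, edgeR). In hypothalamus Oprk1 had log2 differences of 0.013 (SE 0.26) after saline and 0.29 (SE 0.25) after psilocybin.

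Striatal marker genes moved with these Oprk1 values in PFC. The summed CPM of 12 markers of striatal projection neurons had a median of 474 in the PFC saline group at 4 weeks, and the libraries of cages 6 and 7 were at 2491 and 1013. With the log2 of that sum as a covariate, Oprk1 was lower at 3 h by 0.71 on the log2 scale after saline (adjusted p = 0.0309, edgeR) and by 0.72 after psilocybin (adjusted p = 0.0214), so it was called in both treatments. Without cage 6 the log2 differences were -0.89 (adjusted p = 0.0222) and -0.53 (adjusted p = 0.236). Within cages 1 to 4, where the striatal sums of the 4-week saline group reached at most 483 CPM, the saline difference was -0.72 (adjusted p = 0.0348), and within cages 5 to 8 it was -1.59 (adjusted p = 0.195). Without the saline library of cage 6 at 4 weeks alone, it was -0.85 (adjusted p = 0.0411). Of the 12 striatal markers 0 were called between the times in either treatment, with 12 of 12 negative after saline and 3 of 12 after psilocybin.

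Hypothalamic neuron markers were nearly absent from PFC. Of 12, 3 were called lower at 3 h after saline (Otp, Nkx2-1 and Trh, log2 differences -2.86, -2.24 and -1.598, adjusted p = 0.00608, 0.0132 and 0.0484, edgeR), and 0 after psilocybin. Log2 differences were negative in 10 of 12 after saline (median -0.90) and in 11 of 12 after psilocybin (median -0.64). Their summed level was 3.13 to 8.96 CPM in PFC after saline at 3 h and 3.79 to 25.6 CPM at 4 weeks. The 4-week saline library of cage 6, with the highest Oprk1, had 7.83 CPM of them, and that of cage 3, with 25.6 CPM, had 9.41 CPM of Oprk1. Their part in the Oprk1 difference, and that of the striatal markers beyond the covariate, was not tested.

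**Figure D4:**
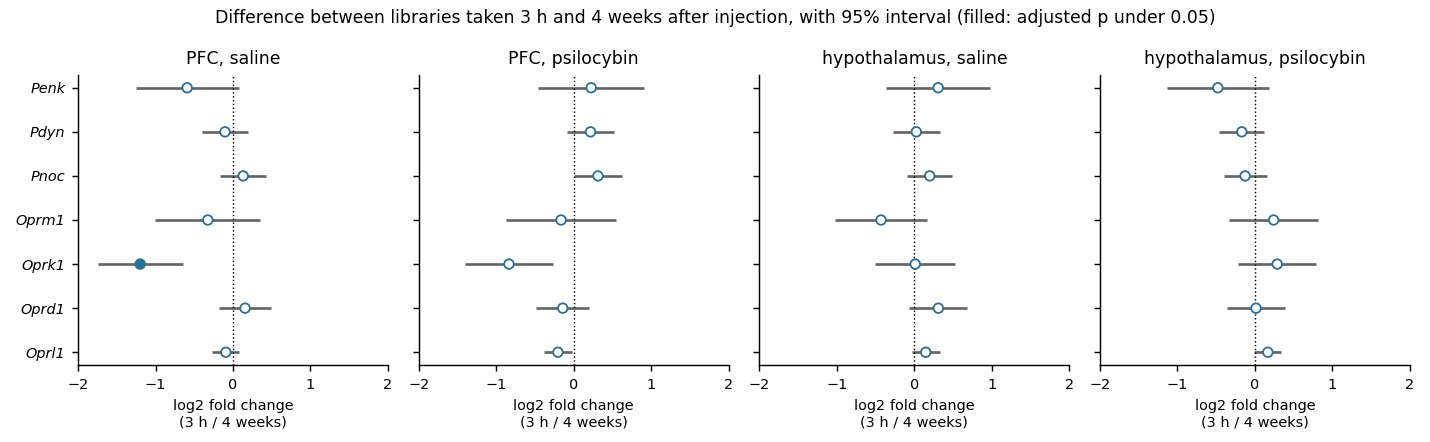
Log2 difference of each opioid gene between libraries taken 3 h and 4 weeks after injection, with its 95% interval, in 1 panel per region and treatment (edgeR). The only filled point, past an adjusted p of 0.05, is Oprk1 in PFC after saline at -1.20, and in PFC after psilocybin the intervals of Oprk1, Pnoc and Oprl1 also exclude 0.

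No other opioid gene passed a comparison of the times in edgeR. In hypothalamus 0 of 7 passed after saline (background 0.685%) and 0 of 7 after psilocybin (background 1.16%), and 0 of 7 had an unadjusted p under 0.05 in either, beside 8.09% and 17.4% of all genes. Oprm1 in hypothalamus after saline had a log2 difference of -0.43 (SE 0.30, adjusted p = 0.840, edgeR), which voom with quality weights called (-0.44, adjusted p = 0.028). In PFC after psilocybin, Pnoc was at 0.31 (unadjusted p = 0.0446) and Oprl1 at -0.20 (unadjusted p = 0.0303), with adjusted p of 0.232 and 0.188.

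Of the regulators list, 4 of 10 genes were higher at 3 h in PFC after saline, where 4.72% of all genes were called, and 4 of 10 after psilocybin, where 5.96% were. Egr1, an activity-induced transcription factor gene, was higher by 1.20 on the log2 scale after saline (adjusted p = 0.000134, edgeR) and by 1.15 after psilocybin (adjusted p = 0.000441). Fosb was higher by 0.90 in both (adjusted p = 0.000845 and 0.00138), Junb by 0.96 and 1.29 (adjusted p = 0.0277 and 0.00366), and Fos by 1.23 and 1.70 (adjusted p = 0.0325 and 0.0039). In hypothalamus Fosb was higher at 3 h after saline (1.37, adjusted p = 2.44e-05) and after psilocybin (0.89, adjusted p = 0.0101), and it was the 1 gene of 10 called in each, beside 0.685% and 1.16% of all genes. Of the 23 signalling genes, 2 were called in PFC after saline and 1 after psilocybin: after saline Kcnj5 was lower at 3 h (-1.65, adjusted p = 0.0164) and Grk2, a kinase that desensitises opioid receptors, was higher (0.24, adjusted p = 0.0269), and after psilocybin Adcy8 was lower (-0.41, adjusted p = 0.00163). Of the 9 peptidase genes, 1 was called in PFC after saline, Ece2, which was lower at 3 h (-0.60, adjusted p = 0.0324). These calls come from the same control and psilocybin libraries as those of the opioid genes.

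The fourth question was how the genes varied among mice of the same group. Penk had a coefficient of variation of 50.2% to 112% in the 4 PFC groups and 22.7% to 50% in hypothalamus. In 4 of the 8 groups another opioid gene varied more, Oprm1 in 3 of them and Oprk1 in PFC after psilocybin at 4 weeks (67.5%, beside 65.9% for Penk). In each PFC group the highest Penk value came from the mouse of cage 6: 164 CPM (saline, 3 h; median of the other libraries 67.0), 188 CPM (psilocybin, 3 h; 80.2), 497 CPM (saline, 4 weeks; 55.9) and 226 CPM (psilocybin, 4 weeks; 63.8). The same 4 libraries had the highest sums of striatal markers of their groups, at 939, 1043, 2491 and 1099 CPM, where the medians of the other libraries were 422 to 477 CPM. In hypothalamus cage 6 was highest for both in 3 of 4 groups, and in the group of psilocybin at 4 weeks it had the lowest Penk value, at 56.4 CPM.

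Penk rose and fell with the striatal markers across libraries. After group and pool effects were subtracted from log2 CPM, Pearson's r between Penk and the striatal sum was 0.849 in PFC and Spearman's rho 0.745, over 31 libraries (permutation p = 1e-05 for both, the smallest that 100000 permutations can give, adjusted p = 0.00028 over 56 relations). In hypothalamus r was 0.863 and rho 0.793, with the same p. Without the 2 libraries farthest from the median striatal sum, r was 0.753 in PFC and 0.782 in hypothalamus, and within the pools it was 0.638 and 0.902 in PFC and 0.724 and 0.905 in hypothalamus. With the striatal sum as a covariate, the standard errors of the Penk comparisons fell (from 0.33 to 0.16 for PFC at 3 h), and the log2 fold changes between psilocybin and saline became 0.11 and -0.094 in PFC and -0.18 and 0.22 in hypothalamus, still with 0 of 4 called. None of the 12 markers was at 0 counts in the 4 PFC libraries of cage 6. Drd2, 1 of them, reached 76.3 CPM in PFC, where its median was 1.35 CPM. In hypothalamus Drd2 was at 14.3 to 32.8 CPM (median 21.5). Between the regions, 5 of the 12 markers were called higher in PFC and 5 lower. Whether the sum stands for striatal neurons in hypothalamus was not tested. The part of dissection in these values was not tested.

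**Figure D5:**
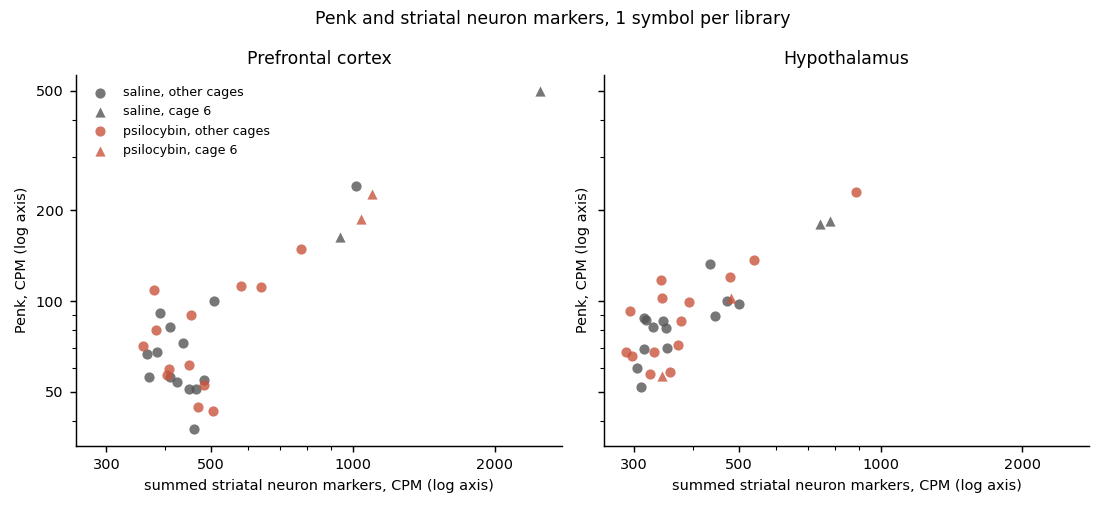
Penk against the sum of 12 striatal projection neuron markers, both in CPM on log axes, 1 symbol per library, with libraries of cage 6 as triangles and treatments by colour. In PFC the 4 triangles and 1 other saline library lie at the upper right, at 939 CPM of markers or more, and the points of both treatments follow 1 band.

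Of the other genes, Oprk1 and Pdyn moved with the striatal sum in PFC (r = 0.703, rho = 0.623, adjusted permutation p = 0.000747 and 0.00325 for Oprk1; r = 0.679, rho = 0.506, adjusted permutation p = 0.00157 and 0.025 for Pdyn). Without the 2 farthest libraries r was 0.527 and 0.378, and within the pools the Oprk1 relation was 0.263 in C and 0.794 in D. Penk and Pdyn moved together in PFC (r = 0.675, rho = 0.478, adjusted permutation p = 0.00126 and 0.0316), with r = 0.409 without the 2 farthest libraries. Oprm1 in PFC had rho = 0.491 with the striatal sum (adjusted permutation p = 0.0316) and r = 0.389 (adjusted permutation p = 0.0839), with r = 0.402 without the 2 farthest libraries and 0.256 and 0.436 within pools C and D. Oprd1 and Oprl1 in PFC had r = 0.0346 and 0.138 with the striatal sum (rho = 0.0673 and 0.027, adjusted permutation p = 0.883 and 0.58 for r). In hypothalamus Oprd1 had r = 0.56 and rho = 0.552 with it (adjusted permutation p = 0.00666 and 0.017), r = 0.387 without the 2 farthest libraries, r = 0.667 without the cage 5 library that stood apart, and 0.115 and 0.646 within pools A and B. Pnoc ran against Oprk1 in PFC (r = -0.56, rho = -0.629, adjusted permutation p = 0.00666 and 0.00294), within pool C (r = -0.55) and within pool D (r = -0.618).

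Several relations in hypothalamus leaned on 1 library. Oprm1 and Oprk1 had r = 0.807 (rho = 0.301, adjusted permutation p = 0.00315 and 0.246), and r = 0.401 without the cage 5 library of psilocybin at 4 weeks. That library had 0.994 CPM of both Oprm1 and Oprd1, where the medians of its group were 7.46 and 5.40 CPM, and 37.3 CPM of Pnoc, the highest of the 31 libraries. For Oprk1 and Oprd1 r fell from 0.789 to 0.427, and for Pnoc and Oprm1 it went from -0.719 to -0.295 without it.

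The genes whose residual pattern was most like that of each opioid gene were taken over the 31 libraries of each region. For Penk in PFC they were Gng7 (r = 0.938), Adora2a (r = 0.936) and Lrrc10b (r = 0.917), of which Adora2a, an adenosine receptor gene, is on the striatal marker list. In hypothalamus they were Kcnip2 (r = 0.953), Baiap2 (r = 0.948) and Itpka (r = 0.929). For Pdyn they were Adamts3 (r = 0.873), Ankrd63 (r = 0.807) and Gnal (r = 0.802) in PFC and Kcnk2 (r = 0.859), Stk26 (r = 0.78) and Sox11 (r = 0.771) in hypothalamus. For Pnoc they were Serf2 (r = 0.81), Camk2n2 (r = 0.783) and Rilpl1 (r = 0.773) in PFC and Caly (r = 0.893), Faap20 (r = 0.892) and Arl6ip4 (r = 0.885) in hypothalamus. Among the receptors in PFC, Oprm1 was closest to Plcxd3 (r = 0.825), Ngfr (r = 0.811) and Gm12963 (r = 0.804), and Oprk1 to Cntnap3 (r = 0.853), Gpr83 (r = 0.819) and Lmo3 (r = 0.786). Oprl1 was closest to Gm41361 (r = 0.86), Dstyk (r = 0.827) and Rnf14 (r = 0.821) in PFC and to Usp11 (r = 0.882), Gprasp2 (r = 0.841) and Dner (r = 0.838) in hypothalamus. In hypothalamus Oprm1 was closest to Dgki (r = 0.954), Xkr4 (r = 0.953) and Helz (r = 0.95), Oprk1 to Zfp26 (r = 0.949), Dzip3 (r = 0.947) and Usp47 (r = 0.946), and Oprd1 to Dlg2 (r = 0.94), Gas7 (r = 0.94) and Caln1 (r = 0.926). Without the cage 5 library, the highest r for these 3 receptors in hypothalamus was 0.855, 0.829 and 0.861, and for Pnoc it was 0.761, with Rps4l. Without the cage 7 library in PFC, the 3 genes closest to Oprl1 were Syn2 (r = 0.856), Slc2a3 (r = 0.812) and Asns (r = 0.806). Those closest to Oprm1 were then Plcxd3 (r = 0.784), Tcp11l1 (r = 0.742) and Stpg1 (r = 0.707), and for Pnoc Thrsp (r = 0.758) took the place of Camk2n2.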

How the data were processed

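Per the labels and the study's methods, poly-A RNA was sequenced as 52-bp pairs after a stranded library protocol, aligned to GRCm38 with STAR 2.7.2b and counted per gene (GENCODE vM25) with featureCounts 1.6.2. The authors deposited raw counts, without normalization, for 64 libraries. Symbols came from a GENCODE vM21 table. Libraries with at least 1000000 counts (62) were kept and genes filtered with filterByExpr (minimum count 10). The main test was edgeR 4.0.16 (TMM, quasi-likelihood, R 4.3.3) with group and extraction pool, Benjamini-Hochberg over 18971 genes, threshold 0.05. CPM and RPKM were computed from TMM-scaled library sizes and summed exon lengths, and log2 CPM used a prior count of 2. Relations used 100000 permutations. Named were all 7 genes, of the pathway lists the 3 smallest p-values between regions, the smallest for psilocybin and those called between times, and the 3 genes with the highest r for each member and region, except Oprd1 in PFC. Alternatives were DESeq2 1.42.0, limma 3.58.1 and those in the closing section. The script was tested on simulated data. Members and lists were chosen with earlier results of these data known. Labels tie each library to a cage, and the mice are separate animals. Same-numbered libraries of 1 region hardly deviated together (mean r 0.0806 in PFC and 0.0723 in hypothalamus). With group and pool effects removed, the 2 regions of 1 mouse gave mean r = 0.0289. A sequence and the likeness of Oprd1 in PFC are not reported here.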

Additional observations from a re-analysis of the deposited data

Results flagged for a closer look

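Within the 56 combinations of 7 genes and 8 groups, 12 had 1 library far from the others by Dixon's ratio, in 7 libraries in all. The limits of this ratio hold for separate groups of normally distributed values, while CPM is skewed and the 7 genes share libraries. No rate by chance is therefore set beside this count. Of the 12 values, 7 came from mice of cage 6 and 1 from cage 8, all high values of precursors or of Oprk1. In PFC, Penk was at 497 CPM (saline, 4 weeks, cage 6; the next at 241), 226 CPM (psilocybin, 4 weeks, cage 6; the next at 112) and 164 CPM (saline, 3 h, cage 6; the next at 91.6). In hypothalamus Penk was at 181 CPM (saline, 4 weeks, cage 6; the next at 89.3) and 230 CPM (psilocybin, 4 weeks, cage 8; the next at 137). In PFC at 4 weeks, the cage 6 libraries also stood out for Pdyn, at 81.8 CPM after saline and 44.3 CPM after psilocybin, and for Oprk1, at 24.7 CPM after psilocybin. Striatal marker sums were also high in these libraries, and their part in the values was not tested.

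The other 4 values were in the 2 libraries that stood apart. The hypothalamus library of psilocybin at 4 weeks, cage 5, had 10.6 CPM of Oprk1 (the others 23.0 to 28.8) and 37.3 CPM of Pnoc (the others 17.1 to 23.2). The PFC library of psilocybin at 3 h, cage 7, had 23.7 CPM of Oprl1 (the others 37.6 to 47.7) and 13.9 CPM of Pnoc (the others 6.59 to 9.41).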

How the results depend on the processing

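The counts here cover 37 log2 fold changes: all 7 genes for psilocybin in 4 comparisons and between regions, and Oprk1 between times in PFC. Refitted with other tools, filters, models or libraries, they kept their direction and side of the threshold in 484 cases, changed sign in 21, gained a call in 5 (Oprk1 in 4, and Penk between regions in cages 1 to 4) and lost one in 3. With 1 library left out these counts were 872, 24, 3 and 0. Those that changed sign were all in comparisons that did not pass, and the cause was not tested. For psilocybin over saline in PFC at 3 h, cages 5 to 8 gave 0.052 (Pdyn) and -0.25 (Oprk1), cages 1 to 4 gave 0.22 (Oprm1), voom quality weights 0.042 (Oprm1), the striatal covariate -0.076 (Oprk1), and leaving out the 2 libraries that stood apart -0.014 (Pnoc) and 0.15 (Oprm1). In PFC at 4 weeks, Pnoc was 0.17 with all 64 libraries and 0.077 in cages 5 to 8, Oprm1 0.040 with voom, and Oprk1 0.22 and Oprd1 0.089 in cages 1 to 4. In hypothalamus, Oprk1 at 3 h was -0.0089 in cages 1 to 4, and at 4 weeks Pdyn was -0.16 in cages 5 to 8, Oprl1 0.058 in cages 1 to 4, and Oprd1 0.17 with voom, 0.044 in cages 1 to 4, 0.064 without cage 6 and 0.13 without the 2 libraries that stood apart. Penk between regions was 0.067 without the pool term and 0.36 in cages 5 to 8.

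With 1 library left out in turn, the ranges that crossed 0 were, in PFC at 3 h, Pnoc -0.012 to 0.20, Oprm1 -0.24 to 0.15 and Oprk1 -0.081 to 0.18, and in PFC at 4 weeks, Pnoc -0.14 to 0.027, Oprm1 -0.31 to 0.014, Oprk1 -0.68 to 0.035 and Oprd1 -0.087 to 0.029. In hypothalamus they were Oprl1 at 3 h, -0.043 to 0.0046, and at 4 weeks Pdyn, -0.011 to 0.16, and Oprd1, -0.21 to 0.13, and between regions Penk, -0.16 to 0.0069.

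For 3 h against 4 weeks, the number of opioid genes called in PFC after saline was 0 in place of 1 with voom, with libraries of 1 region and in cages 5 to 8. In PFC after psilocybin it was 1 in place of 0 with DESeq2, with at least 10 counts in every library, with voom and with the striatal covariate, and 0 to 1 with 1 library left out. In hypothalamus after saline it was 1 in place of 0 with voom. The cage number as replicate block changed no call of these genes (Oprk1 in PFC after saline -1.09, adjusted p = 0.00538, edgeR), nor did the animal as replicate block between regions (6 of 7 called). Over all genes, calls for psilocybin in PFC at 3 h ran from 0 to 1232 (voom), and for the times in PFC from 44 to 1900 after saline and from 93 to 3614 after psilocybin. Leaving out cage 6 or the 2 libraries that stood apart was chosen after seeing the data.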
